A study of Homo sapiens and Mus musculus with 20 samples.

Results

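The regions described here are 4201 stretches of the genome that the WT list of H3K27me3 held in ARP1 cells, a human multiple myeloma line, and that lay on no H3K27ac region and no input region. They are 24.2% of the 17355 H3K27me3 regions of that list on chromosomes 1 to 22 and X. The members were thus chosen by measured values, the called regions of these libraries. A region was kept when it shared not a single base pair with the 3 ARP1 lists of H3K27ac or the 3 lists of input, which is chromatin sequenced without an antibody. Of the others, 13064 (75.3%) lay on H3K27ac in at least 1 genotype and serve as the comparison set, and 90 lay on input alone.

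H3K27me3 is trimethylation of lysine 27 of histone H3, written by EZH2 within Polycomb repressive complex 2, and it marks silent genes. At developmental regulators such as the HOX clusters it is known to form Polycomb domains, broad blocks of many kilobases over CpG-rich promoters that the cell type does not use. The same lysine cannot carry acetylation, the mark of active promoters and enhancers, at the same time, and KDM6A (UTX) is a demethylase that removes the methyl groups through its JmjD domain.

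The study used ARP1 cells of 3 KDM6A genotypes: wild type (WT), knock out (KO), and cells labelled JmjD-dead, whose titles name the substitution H1146E. H3K27me3, H3K27ac and input were available for each of these. H3K4me1, a mark of enhancers, and KDM6A itself were profiled in WT and KO, and the HA epitope in WT cells without the tag and in HA-tagged cells, whose genotype is given as knock out. KDM6A was also profiled in a second human line labelled KARPAS, of KDM6A wild type, and H3K27me3 in mouse embryonic fibroblasts (MEF) with and without Kdm6a. Every group was 1 library, the labels do not say how many clones a genotype stands for, and no p-value is given. Intervals are exact Clopper-Pearson 95% intervals and cover counting error only.

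After removal of duplicate fragments, the H3K27me3 libraries held 5026016 fragments in WT and 6595820 in KO, and 10449019 in JmjD-dead. H3K27ac libraries held 25568819 to 31171803 and inputs 222942 to 724630, so the inputs were shallow. Each region was called against the mean of its own library. Extra DNA copies and repeats can therefore give a region.

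At 22 promoter windows of 21 genes, a member covered part of the 300 bases around a RefSeq transcription start. These windows are 0.0994% of the 22132 windows available. The 250 bases upstream of 5 of these starts are shown because they span the range of CpG content: NOTCH2NLB has the member of highest signal among the promoters, CHDH has the most CG pairs, and GOLGA6L1, NPY2R and CD209 are the ones more than 10 kb from H3K27ac. They were chosen after their values were seen, are from RefSeq GRCh38.p14 on the gene's strand, 5′ to 3′, and have each CG pair in capitals.
NOTCH2NLB: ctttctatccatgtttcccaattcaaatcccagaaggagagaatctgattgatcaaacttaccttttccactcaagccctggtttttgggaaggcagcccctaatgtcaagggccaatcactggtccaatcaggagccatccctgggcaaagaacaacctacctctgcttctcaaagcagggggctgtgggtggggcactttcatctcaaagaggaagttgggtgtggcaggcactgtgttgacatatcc
CHDH: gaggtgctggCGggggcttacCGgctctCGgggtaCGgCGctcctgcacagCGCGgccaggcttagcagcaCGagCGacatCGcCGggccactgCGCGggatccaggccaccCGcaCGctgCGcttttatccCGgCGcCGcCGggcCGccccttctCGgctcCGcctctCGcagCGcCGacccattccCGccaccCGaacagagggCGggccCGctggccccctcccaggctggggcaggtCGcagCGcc
GOLGA6L1: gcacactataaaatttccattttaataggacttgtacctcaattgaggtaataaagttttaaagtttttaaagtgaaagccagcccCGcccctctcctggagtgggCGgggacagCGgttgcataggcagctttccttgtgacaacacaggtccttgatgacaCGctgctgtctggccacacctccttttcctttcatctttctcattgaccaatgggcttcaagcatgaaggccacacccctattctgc
NPY2R: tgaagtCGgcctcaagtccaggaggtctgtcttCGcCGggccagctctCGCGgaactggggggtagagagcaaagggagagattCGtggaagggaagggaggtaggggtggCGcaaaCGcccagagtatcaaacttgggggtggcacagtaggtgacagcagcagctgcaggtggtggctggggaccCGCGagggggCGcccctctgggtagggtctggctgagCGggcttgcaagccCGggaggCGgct
CD209: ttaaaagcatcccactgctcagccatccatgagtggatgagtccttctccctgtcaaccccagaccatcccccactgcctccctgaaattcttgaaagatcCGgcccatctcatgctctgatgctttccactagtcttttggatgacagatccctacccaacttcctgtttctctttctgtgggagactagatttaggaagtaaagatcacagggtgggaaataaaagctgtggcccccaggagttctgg
The windows are chr1:148712535-148712784 (minus strand) for NOTCH2NLB, chr3:53846420-53846669 (minus) for CHDH, chr15:23136823-23137072 (minus) for GOLGA6L1, chr4:155208386-155208635 (plus) for NPY2R and chr19:7747535-7747784 (minus) for CD209.

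NOTCH2NLB, a human partial copy of NOTCH2 with near-identical relatives, had 0 CG pairs in this stretch, and its member had a pileup of 12 fragments. CHDH, choline dehydrogenase of mitochondria, had 32 CG pairs in a stretch of 75.6% GC, and its member of pileup 5 ended 40 bp from H3K27ac. NPY2R, a receptor for neuropeptide Y, had 14 CG pairs, and its member of pileup 5 was 33035 bp from H3K27ac. CD209, a lectin of dendritic cells and macrophages, had 1 CG pair, and GOLGA6L1, a golgin-like gene of a family of near-identical copies, had 4. The promoters under members thus ranged from CpG islands to windows with hardly any CG.

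CpG-rich was taken as a GC content over 50% and an observed over expected CG ratio over 0.6. By that rule 57.2% of all promoter windows were CpG-rich, against 8 of the 22 under a member (36.4%, interval 17.2 to 59.3). Among the 9618 windows with no H3K27ac region in any genotype the share was 28.2%. Both of these backgrounds lie within the interval, so with 22 windows no difference from either was detectable. Of the 21 genes, 1 had such a member found again in KO and 6 had one found again in JmjD-dead.

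The members were short and weak. Their median width was 244 bp (quartiles 210 and 310), and the shortest, at 186 bp, equalled the fragment length of the library. Only 228 (5.43%) reached 500 bp, 23 (0.547%) reached 1 kb and 0 of 4201 reached 2 kb. Regions on H3K27ac had a median width of 319 bp, and 1068 (8.18%) of them reached 1 kb, 219 reached 2 kb and 41 reached 5 kb. A wider region is more likely to touch another list by 1 bp, so the rule itself sets part of this difference in width. The MEF WT list, made from 23955669 fragments in another species, had a median width of 330 bp and 726 of 191871 regions of at least 5 kb, given only as a scale. The widest ARP1 member was 1786 bp long, at chr17:23476871-23478656, with no protein-coding gene within 10 kb. The next 4 by width, from 1620 to 1383 bp, lay at chr12:35885620-35887239, chr17:23214490-23216075, chr5:48851350-48852778 and chr11:52753138-52754520, also with no gene within 10 kb, and each of the 5 overlapped a region of a KDM6A or HA list.

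Signal is the authors' pileup, the number of fragments stacked at the summit. Among members the median pileup was 5 fragments and the highest 15. A pileup of 4, the lowest that was called, was seen in 1217 members (29.0%), 5 in 1753 (41.7%) and 6 in 843 (20.1%), so that 3813 members (90.8%) rested on 4 to 6 fragments. Of the regions on H3K27ac 64.2% did. A count of 5 has an exact Poisson 95% interval of 1.62 to 11.7. The fold over the library mean, the authors' ratio, followed from the pileup with 1 added to both terms, and was 4.44 at a pileup of 5. The mean pileup it implies is 0.353 fragments, so the fold is smaller than the plain ratio of pileup to mean. A pileup of 8 or more was seen in 107 members, the same regions as those with a −log10 q of at least 5.

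**Figure D1:**
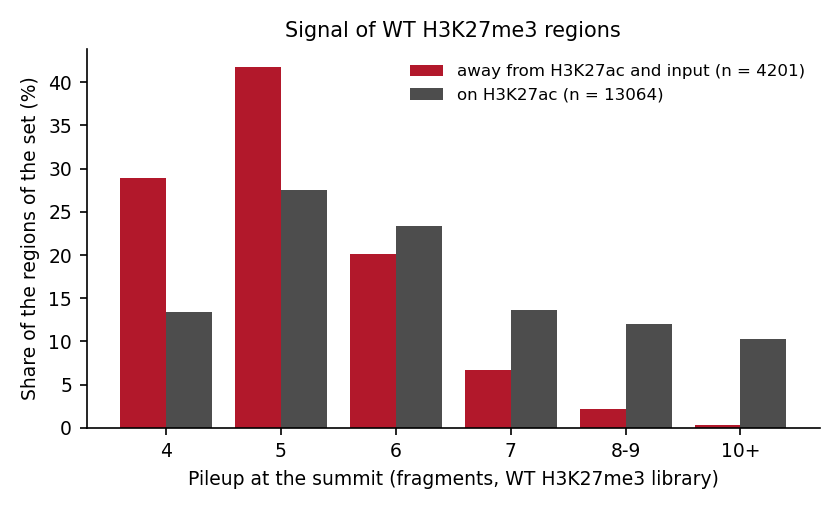
Share of WT H3K27me3 regions (vertical axis, %) by pileup at the summit in fragments (horizontal axis), for the 4201 regions away from H3K27ac and input and the 13064 on H3K27ac. The first set is concentrated at 4 to 6 fragments (90.8%), the second reaches further into 8 or more.

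The highest ranked member lay on chromosome 8 with no protein-coding gene within 10 kb, had a pileup of 15 and a width of 568 bp, and was found again in both mutants. NOTCH2NLB came next, at chr1:148712232-148712684, and was also found in both. FERRY3, a subunit of an endosomal mRNA-binding complex, held a member of pileup 11 at chr12:4497157-4497439 that was found in neither mutant. LGR5, an R-spondin receptor and marker of epithelial stem cells, held one of pileup 11 at chr12:71564069-71564724, which was 76629 bp from H3K27ac and found in both mutants. Even the strongest members thus differed in whether another library held them.

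The other members of the 10 highest ranked had pileups of 10 or 11. The region at chr15:88683505-88684046 had no gene within 10 kb and was found in both mutants. MICAL3, an actin-oxidising enzyme, held chr22:17999045-17999281, only 26 bp from H3K27ac and found in neither mutant. ACY3, an aminoacylase, held chr11:67649341-67649964, with TBX10, a T-box transcription factor, within 10 kb. EPS15L1, an endocytic adaptor, held chr19:16374798-16375480, and TRPC4AP, a partner of a TRPC4 cation channel, held chr20:35089246-35089439. These last 3 and a member at chr19:47909259-47909829 were found in JmjD-dead and not in KO. Among the highest ranked members found in both mutants were also one in IKZF1, the lymphoid transcription factor Ikaros, at chr7:50334950-50335765 (pileup 9, 99 bp from H3K27ac), and one in SLC6A12, a transporter of betaine and GABA, next to SLC6A13, a GABA transporter, at chr12:213114-213338 (pileup 8).

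Few members were held by the H3K27me3 lists of the other genotypes. With 1 bp of overlap, 194 of the 4201 (4.62%, interval 4.00 to 5.30) had a region in KO, where all WT H3K27me3 regions together reached 25.2%. In JmjD-dead 732 did (17.4%, interval 16.3 to 18.6), where all WT regions reached 47.6%. Both mutants held 118 (2.81%) and neither held 3393 (80.8%). A mutant region counted here could itself lie on H3K27ac or input. Mutant regions away from both by the same rule held 149 members in KO (3.55%) and 525 in JmjD-dead (12.5%). Regions on H3K27ac were held in 31.9% of cases by KO, in 57.3% by JmjD-dead and in 38.8% by neither. The members' shares were thus the lower ones in both mutant lists. Part of this is set by the rule, which also took away WT regions on H3K27ac of KO or JmjD-dead. Of the H3K27me3 regions of KO and JmjD-dead, 80.6% and 62.2% lay on H3K27ac of at least 1 of the 3 genotypes. With members chosen by the WT lists of H3K27ac and input alone, KO held 8.74% and JmjD-dead 26.4%. Counting a mutant region within 1 kb as found gave 10.6% and 31.7%, and a JmjD-dead list reduced by rank to the length of the shortest list held 7.36%. With 50% of the member covered, KO held 2.999%. Members over 1 kb from H3K27ac and input gave 2.89% and 11.5%.

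The libraries differed in depth. KO had 1.31 times the WT fragments yet 11865 regions, and JmjD-dead had 2.08 times and 37236. A WT pileup of 4 scaled to those depths would be 5.25 in KO and 8.32 in JmjD-dead, while the lowest pileup either list called was 5. Since a count of 4 has an interval of 1.09 to 10.2, a member of equal density can fall below that limit by counting error alone. Only summits with a pileup of at least 4 were called in WT, so these counts and their scaled values are selected to be high. The interval does not allow for that selection. The part of depth in the recovery was not tested.

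Recovery went up with signal in both sets and stayed lower among members at each level. At a pileup of 4, KO held 1.73% of members (interval 1.07 to 2.63) and 12.8% of regions on H3K27ac. At a pileup of 7 the values were 9.25% (interval 6.13 to 13.3) and 33.2%, and at 8 or 9 they were 16.3% (interval 9.42 to 25.5) and 52.5%. JmjD-dead held 11.8% of members at a pileup of 4 against 36.4%, and 42.4% at 8 or 9 against 78.2%. Only 15 members reached 10 fragments, of which KO held 4 and JmjD-dead 10. The members' share was the lower one at every pileup in both lists, and the rule sets part of this at each pileup too.

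The shares were also read at matched pileup and width. At a pileup of 5 and a width of 186 to 249 bp, KO held 2.18% of 917 members (interval 1.34 to 3.35) and 12.4% of 1336 regions on H3K27ac, and JmjD-dead held 11.2% and 34.7%. The order was the same in every combination of pileup 4, 5, 6 or 7 with 3 width classes. The rule, which took WT regions on H3K27ac of a mutant out of the members, acts within each class too. Matching on pileup and width does not remove its part, and the classes were not repeated with members chosen by WT lists alone.

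**Figure D2:**
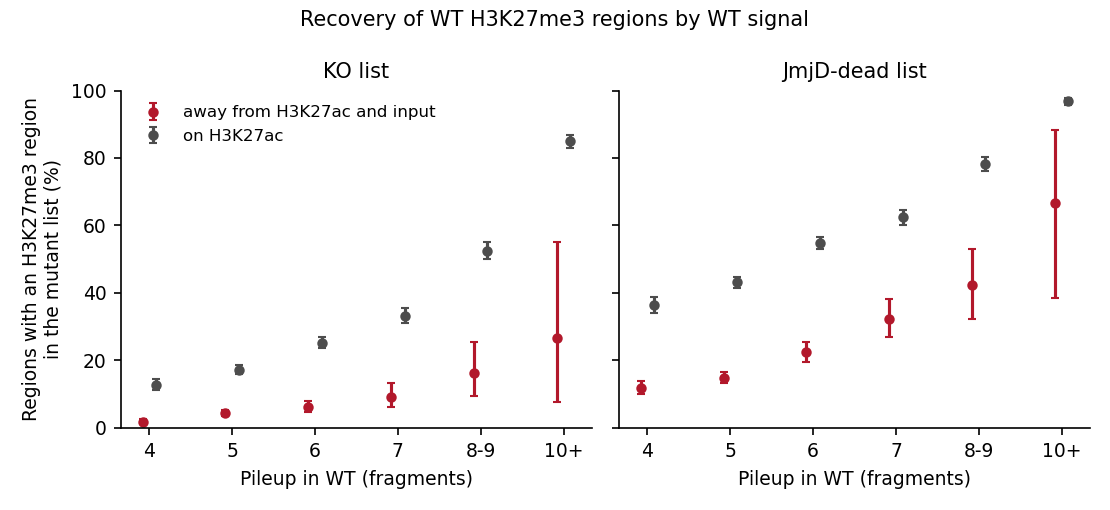
Share of WT H3K27me3 regions with an overlapping region in the KO list (left) and the JmjD-dead list (right), by WT pileup in fragments, with exact 95% binomial intervals as bars. Points for regions away from H3K27ac lie below those for regions on H3K27ac at every pileup, for example 1.73% and 12.8% in KO at a pileup of 4. The rule that chose the regions sets part of this order.

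Applying the same rule to the mutants gave other sets rather than a shared one. KO had 2200 H3K27me3 regions away from H3K27ac and input (18.5% of its list), of which the WT list held 8.91% and the JmjD-dead list 27.7%. JmjD-dead had 13756 (36.9%), of which WT held 4.32% and KO 3.56%. The median pileup was 6 in both mutant sets, and the width was 253 bp at the median in KO and 276 in JmjD-dead. The small size of the WT members was thus seen in all 3 libraries.

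Members often lay close to acetylated chromatin. Their median distance to the nearest H3K27ac region was 1.98 kb, 1724 (41.0%) were within 1 kb and 1235 (29.4%) were over 10 kb away. Recovery was higher near H3K27ac: of those within 1 kb, KO held 6.84% and JmjD-dead 25.6%. Of the 1085 members 10 to 100 kb away, KO held 3.41% (interval 2.41 to 4.67) and JmjD-dead 9.68% (interval 7.98 to 11.6), and of the 150 beyond 100 kb, KO held 1 and JmjD-dead 12. The median pileup was 5 in all 4 distance classes. Members farther from H3K27ac were thus held less often by the deeper JmjD-dead library at the same median signal.

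The border drawn by the rule was a soft one. The 612 members within 200 bp of H3K27ac had a median width of 246 bp and a median pileup of 5, and KO held 8.99% and JmjD-dead 29.9% of them. The 609 regions just outside the rule, with up to 100 bp on H3K27ac, had 250 bp and 5, and were held in 10.8% and 31.5% of cases.

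Members gathered in part of the genome. Of 3043 bins of 1 Mb, the 153 that held most members (the densest 5%) contained 1501 of them (35.7%), 1501 bins held none and 691 held exactly 1. The densest bins were chr2 from 10 to 11 Mb with 42 members, chr2 from 11 to 12 Mb with 39 and chr1 from 146 to 147 Mb with 31. The stretch of chr2 from 9 to 13 Mb held 119 members and the stretch of chr1 from 143 to 152 Mb held 189, in bins of at least 10 members each. Chromosomes 22 and 19 had most per Mb, with 3.35 and 3.22, and X had 28 members, or 0.18 per Mb. The bins were ranked by the members, so their share describes unevenness and is not a test.

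The crowded bins as a set held more than 5% of the regions of each human list, though single bins differed. The same 153 bins held 37.7% of all WT H3K27me3 regions and 45.4% of those of KO. They held 44.3% of the regions of the HA antibody in cells without the tag and 40.3% of those of the KDM6A antibody in KO cells, both lists of libraries without the intended target. They held 19.9% of WT H3K27ac regions and 19.1% of WT input regions, against 5% of the bins. The KDM6A list of KO cells had a median of 7 regions per bin in these bins and 1 over all bins. It had 4 regions at chr2 from 10 to 11 Mb and 6 from 11 to 12 Mb. At chr3 from 12 to 13 Mb it had 0, and at chr1 from 146 to 147 Mb it had 519. In the 153 bins, the H3K27me3 list of KO held 7.33% of members and that of JmjD-dead 29.3%. In the other bins the values were 3.11% (interval 2.49 to 3.84) and 10.8% (interval 9.67 to 12.05). The part of DNA copy number, repeats or antibody background in these bins was not tested.

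**Figure D3:**
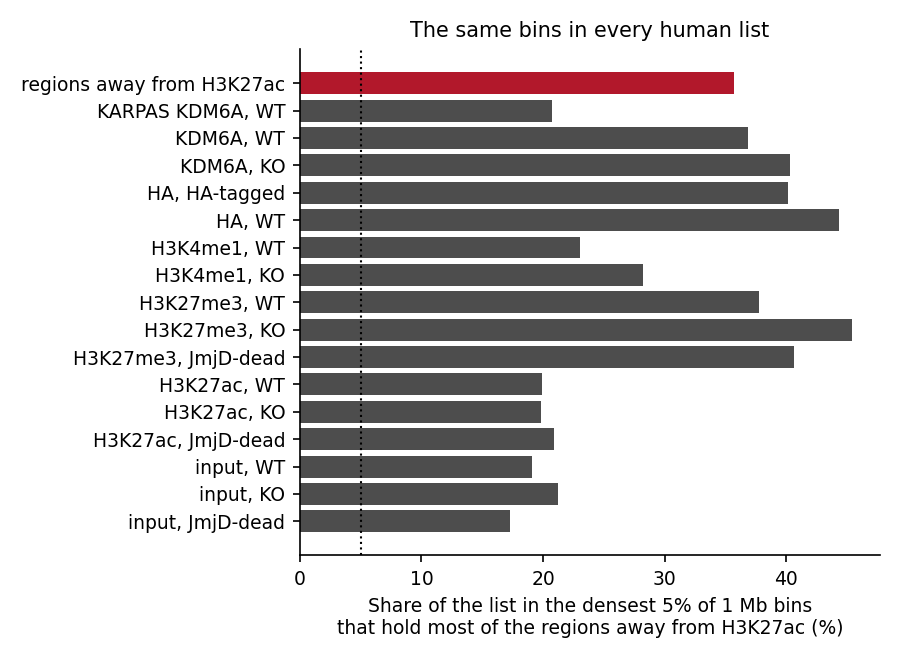
Share of each human list (horizontal axis, %) in the 153 bins of 1 Mb that hold most of the regions away from H3K27ac. The red bar is those regions (35.7%), grey bars are the full lists by antibody and genotype, and the dotted line marks the 5% of bins these are; all lists, the inputs included, lie above it.

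Over the whole genome most members stood alone. When members up to 10 kb apart were joined, 3513 (83.6%) stayed alone, 54 runs had at least 3, and the longest run had 6 members over 35123 bp of chromosome 1 with no protein-coding gene. Members up to 1 kb apart gave no run of 5 kb or more. Among the 13064 regions on H3K27ac, joining at 10 kb left 37.1% alone and reached 64 regions over 219164 bp. A set with more regions leaves fewer alone by number. The 13756 JmjD-dead regions chosen by the same rule had 57.8% alone and reached 37 regions over 114373 bp. Besides the longest run of WT members, runs of 6 members lay in PDE4DIP (22012 bp, chr1:148869457-148891468) and at 3 places with no gene named.

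Members lay in and near genes somewhat more often than the genome share of these places. Within gene bodies lay 2130 (50.7%, interval 49.2 to 52.2), where bodies cover 46.7% of the effective genome, and within 10 kb of a protein-coding gene lay 2576 (61.3%, interval 59.8 to 62.8), where such windows cover 54.9%. Of WT regions on H3K27ac 56.2% lay within 10 kb. Only 21 members (0.500%) touched a promoter window.

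A member lay within 10 kb of 2535 of 19974 protein-coding genes (12.7%). The sets made by the same rule in KO and JmjD-dead lay within 10 kb of 6.86% and 26.6%. A single member was the rule: 415 genes had at least 2, 126 at least 3, 20 at least 5 and 2 at least 10. PDE4DIP (myomegalin, an anchor of phosphodiesterase at the Golgi and centrosome, on chromosome 1 near near-identical copies) had 12, of which KO held 1 and JmjD-dead 5. IQSEC1, an activator of the GTPase ARF6, had 10 with pileups of 4 to 7, of which KO held 5 and JmjD-dead 4. ASAP2, an Arf GTPase-activating protein (GAP), and KANSL1, a scaffold of a histone acetyltransferase complex, had 9 each. Of these KO held none and JmjD-dead held 5 and 3.

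Several of these genes lie in the crowded stretches of chromosomes 1 and 2. NOTCH2NLB had 8 members and NOTCH2NLC, a near-identical relative, had 6. LPIN1, a phosphatidate phosphatase, had 7, and HPCAL1, a neuronal calcium sensor, and ROCK2, a kinase of the actin cytoskeleton, had 6 each. TMEM117, a membrane protein, had 7 in a window of 623 kb. Counted per kb, the deubiquitinase copies USP17L27, USP17L28 and USP17L5 came first with 3 members each, followed by RAB25, a recycling GTPase, with 4 and LAMTOR2, a lysosomal adaptor of mTORC1 signalling, with 3. HJV, a BMP co-receptor of iron control, had 3, ITGA10, a collagen-binding integrin, and ANKRD35 had 4 each, and MEX3A, an RNA-binding protein, had 3. The windows of such neighbours overlap, as those of the 3 USP17L copies do, so the same regions are counted for each. Regions in copied genes such as NOTCH2NL and USP17L are uncertain, since reads can be placed in any copy.

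Among genes that Polycomb domains classically cover, the HOX cluster genes set position along the body axis. Of 39, 4 had a member within 10 kb (10.3%, interval 2.87 to 24.2, against 12.7% of all genes). Per Mb of gene windows the members numbered 3.66 against 1.88 over all genes, where a region counts once for each gene near it. The 4 genes had only 2 regions: HOXB3 and HOXB4 shared one of 254 bp and pileup 8 at chr17:48575989-48576242, and HOXC9 and HOXC10 shared one of 194 bp and pileup 5 at chr12:53991606-53991799. Neither region was found in KO or JmjD-dead. The HOXA and HOXD clusters had 0 WT H3K27me3 regions of any kind, HOXC had 1 and HOXB had 6, of which 5 lay on H3K27ac, together covering 0.806% of the 220 kb cluster. No HOX cluster was thus covered broadly in this list.

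Of 102 developmental transcription factors, 5 had a member within 10 kb (4.90%, interval 1.61 to 11.1), a share below the 12.7% of all genes, in windows with a median of 27.1 kb against 44.2 kb. They were PAX8 of thyroid and kidney, IRX4 of the heart ventricle, POU4F1 of sensory neurons, FOXF1 of lung mesenchyme and NKX2-2 of the ventral neural tube and islets. Pileups were 4 to 6, and every one of these regions lay outside the gene body, at 5175 to 7361 bp. Only the NKX2-2 region, at chr20:21503999-21504423, was found again, in KO. Of 40 morphogens and their antagonists, the WNT, BMP and hedgehog genes among them, 0 had a member, which allows a share of up to 8.81% by the exact interval. Of 53 clustered protocadherin genes, cell adhesion genes of neurons, and of 35 MAGE genes, which are cancer-testis antigens, 0 had one either.

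The complex itself was among the neighbours. Of 30 genes for Polycomb subunits and H3K27 demethylases, 4 had a member (13.3%, near the 12.7% of all genes). The one at PCGF1, a subunit of a variant Polycomb repressive complex 1, spanned 581 bp at chr2:74505579-74506159 and was found in both mutants. JARID2, an accessory subunit of Polycomb repressive complex 2, EZH2, its catalytic subunit, and EED, its reader of H3K27me3, each had 1 of pileup 5 or 6 found in neither mutant. KDM6A had none, and no H3K27me3 region on H3K27ac either.

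Of 20 B cell genes, 5 had a member (25.0%, interval 8.66 to 49.1, which holds the 12.7% of all genes). EBF1 and PAX5, transcription factors of B cell identity that plasma cells lack or lower, had 2 and 1. MS4A1, which encodes CD20, had one of pileup 7 at chr11:60447069-60447415, 8432 bp from the gene, and it was the only one of these held by JmjD-dead. CIITA, the master activator of MHC class II, and CD79A, a B cell receptor chain, had 1 each. PAX5, CIITA and CD79A had WT H3K27ac at a gene end, and EBF1 and MS4A1 did not. Of 20 plasma cell genes 2 had one (10.0%, near the share of all genes), GPRC5D, a surface receptor targeted in myeloma, and SEC11C, a signal peptidase subunit of the secretory pathway, and both had WT H3K27ac at a gene end.

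Antigen presentation is of interest because the series concerns immunogenicity of myeloma cells. Of 21 genes of MHC class I and antigen processing, 7 had a member (33.3%, interval 14.6 to 57.0, against 12.7% of all genes), from only 5 regions, so the genes are not independent. The list was chosen with earlier results of these data known, and its count is a description. PSMB8 and PSMB9, immunoproteasome subunits, and TAP1, a peptide transporter, shared a region of 298 bp and pileup 5 at chr6:32851987-32852284 that was found in both mutants. The mutant regions that overlapped it were not themselves away from H3K27ac and input. HLA-B, a class I heavy chain, had one of pileup 6, found in neither. Of these 21 genes 20 had a WT H3K27ac region within 2.5 kb of an end, against 61.6% of all genes. Of 17 class II genes 3 had a member (17.6%, interval 3.80 to 43.4, which holds the share of all genes): HLA-DMA and HLA-DMB, which load peptides, shared one, and CIITA had the other.

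The other lists ranged widely around the 12.7% of all genes, with few genes in each. Of 20 housekeeping genes 3 had a member (15.0%), namely SDHA, LDHA and HPRT1. Of 8 cell cycle inhibitors 3 did (37.5%, interval 8.52 to 75.5), CDKN1A with one and CDKN2A and CDKN2B, a pair known as a Polycomb target, sharing one of 219 bp and pileup 5 at chr9:21999326-21999544 that was found in neither mutant. CDKN1A, CDKN2A and CDKN2B all had WT H3K27ac at a gene end. CD8A of T cells and CD14 of monocytes had 1 each among 14 genes per list, and the 14 epithelial and stromal genes had none. Of 30 neuronal and synaptic genes 6 had one, among them CNTNAP2, NRXN3 and RBFOX3, but these genes have windows with a median of 807 kb, and per Mb the members numbered 0.205 against 1.88 over all genes.

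Among gene families found by symbol, 8 of 390 olfactory receptor genes (2.05%), 22 of 509 ZNF genes (4.32%) and 5 of 94 keratin-associated protein genes (5.32%) had a member. These families are silent in most tissues or, for ZNF genes, rich in repeats of one domain. Per Mb of gene windows, olfactory receptor genes had 0.739 members and ZNF genes 0.8704, against 1.88 over all genes. Keratin-associated protein genes had 2.55 per Mb, above that of all genes, in windows with a median of 20.8 kb against 44.2 kb. Their 5 pairs of member and gene came from 4 regions. Genes of near-identical copy families had a member in 34 of 291 cases (11.7%), and 4.77 members per Mb of gene windows. That value counts a region once for each gene near it, and its 54 pairs of member and gene came from 38 regions.

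**Figure D4:**
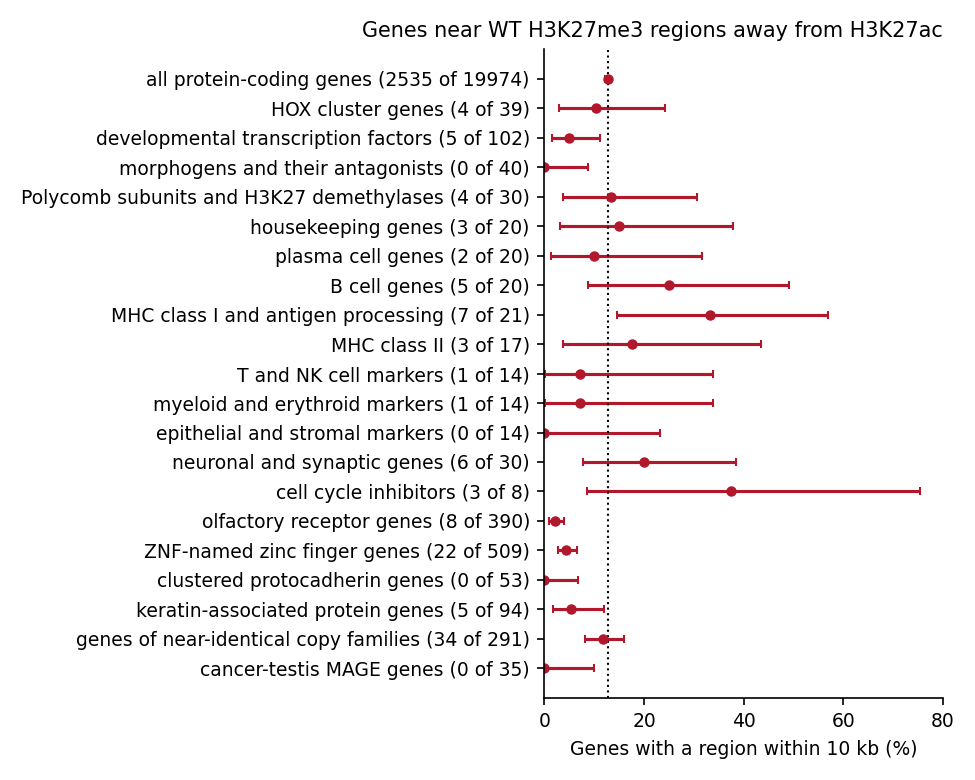
Share of the genes of each list with a region away from H3K27ac within 10 kb (horizontal axis, %), with exact 95% binomial intervals as bars and the counts beside each name. The dotted line is the share of all protein-coding genes (12.7%); developmental transcription factors (4.90%) and olfactory receptors (2.05%) lie below it.

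Other ChIP lists, which the rule did not use, each held 7.97% to 22.1% of members. These shares lay below those of regions on H3K27ac, but above the 0.858% to 2.66% of the effective genome that the lists covered. Of all WT H3K27me3 regions 64.3% lay on WT H3K4me1, but of members 581 did (13.8%, interval 12.8 to 14.9), and of regions on H3K27ac 80.8%. The rule itself sets part of this difference, because most regions it removed for H3K27ac also lay on WT H3K4me1. The KO list of H3K4me1 held 929 members (22.1%, interval 20.9 to 23.4), where it held 41.2% of all WT H3K27me3 regions and 47.3% of those on H3K27ac. The 2 sets were thus ordered oppositely by the lists: members were more often on the KO list, though it covered 1.40% of the effective genome against 2.66% for WT. This order was also seen outside the densest bins, with 10.0% on the WT list and 16.1% on the KO list. The part of the rule in this order was not tested.

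KDM6A was found at members in 16.5% of cases in WT cells, where all WT H3K27me3 regions reached 32.9%, and in 10.0% in KO cells, where all reached 20.8%. The HA antibody gave 15.0% in cells without the tag (29.7% of all regions) and 12.4% in HA-tagged cells (35.2% of all). KARPAS KDM6A held 7.97% (22.2% of all). The KDM6A list of KO cells, which lack the target, thus held fewer members than that of WT cells, while the HA list of untagged cells held more than that of tagged cells. In both pairs the list that held more members also covered more of the effective genome. Coverage was 1.66% for KDM6A in WT against 0.858% in KO, and 1.35% for HA without the tag against 0.914% with it. The part of list size in these orders was not tested. Any of the 5 lists of KDM6A or HA held 1127 members (26.8%, against 47.6% of all regions). Of these KO held 8.78% and JmjD-dead 34.5%, and of the 3074 on none KO held 3.09% and JmjD-dead 11.2%, so members found again were more often at places where these antibodies also gave a region. Whether antibody background takes part in that was not tested.

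**Figure D5:**
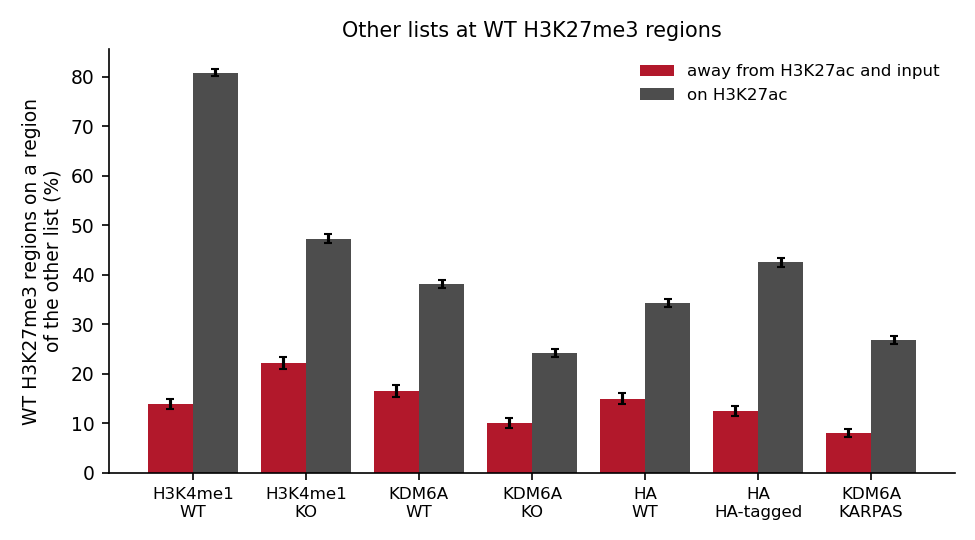
Share of WT H3K27me3 regions on a region of each other list (vertical axis, %), for the 4201 regions away from H3K27ac and input and the 13064 on H3K27ac, with exact 95% binomial intervals. Bars of the first set lie between 7.97% and 22.1%, below those of the second in each list.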

How the data were processed

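The data were deposited lists of enriched regions, 1 library per group, grouped by title, genotype and antibody labels. The submitters' processing notes name Bowtie2, MACS2 2.1.2, Trimmomatic, FastQC and MultiQC and the build GRCh38. The ARP1 H3K27me3, H3K27ac and input lists came from MACS 2.2.7.1 and the others from MACS 2.1.1.20160309, per the file headers, called without a control at a q-value of 0.05. The deposited values of a region are its pileup (a signal), its fold over the library mean (a ratio with 1 added to both terms) and the −log10 of its p and q. All were made by the authors and used here to describe and rank regions within a list.

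Rows with the same coordinates were merged and contigs other than chromosomes 1 to 22 and X left out. Overlap needed 1 bp. Genes, gene positions and promoter sequences were from RefSeq GRCh38.p14, whose positions for genes on alternate sequences can be off. The whole-list shares were set beside those of members. Python 3.11.15 with pandas 2.3.3 and scipy 1.17.1 was used. The overlap functions were tested on simulated data of 400 regions and passed 6 of 6 steps. The members and the 20 gene lists were chosen with earlier results of these data known. Named were genes near the 10 highest ranked members (−log10 q, then fold, ties by position) and the 10 highest ranked found in both mutants, the 10 genes with most members and the 10 with most per kb, list genes with a member (up to 4 in lists of less bearing), KDM6A, the 5 widest members and the 3 densest bins. Of the 10 genes with most per kb, the one known only by a locus number is not reported here. Alternatives changed the q threshold, overlap, window, bins, H3K27ac lists and joining distance.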

Additional observations from a re-analysis of the deposited data

How the results depend on the processing

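No paired analysis was possible because every group was 1 library. The limits are those of 1 library per genotype, a WT library of 5026016 fragments, and shallow inputs. Without the input lists there were 4291 members. Genes numbered 1817 with a window of 1 kb, 1968 with 2.5 kb and 1694 with gene ends alone, and the median width was 245 or 247 bp after joining at 1 or 5 kb. The causes were not tested beyond what each setting does by construction.

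With a −log10 q of at least 5, 107 members were left and 78 genes lay within 10 kb, the median width was 332 bp, KO held 17.8% and JmjD-dead 45.8%, and the densest bins held 100%, since 107 members occupy at most 107 of the 153 bins counted. In that set H3K4me1 was 29.9% in WT and 51.4% in KO, KDM6A 27.1% and 19.6%, HA 22.4% without the tag and 27.1% with it, and KARPAS KDM6A 15.9%. With 50% of the member covered, KO held 2.999% and JmjD-dead 12.8%, and those shares were 7.09%, 15.5%, 12.6%, 7.52%, 11.9%, 8.50% and 5.64% in the same order of lists. Counting regions within 1 kb as found gave 10.6% in KO and 31.7% in JmjD-dead. With the JmjD-dead list reduced to the length of the shortest H3K27me3 list by rank, it held 7.36%.

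Members chosen by WT H3K27ac and WT input alone (6130) were held in 8.74% of cases by KO and 26.4% by JmjD-dead. Those over 1 kb from H3K27ac and input (2425) gave 2.89% and 11.5%, those outside the densest bins 3.11% and 10.8%, and those on no KDM6A or HA region, an alternative chosen after seeing the data, 3.09% and 11.2%. The densest 5% of bins held 39.9% with bins of 500 kb and 26.5% with bins of 5 Mb. In all of these alternatives applied to both, KO held fewer members than JmjD-dead.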

Other observations

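The JmjD-dead list held regions away from H3K27ac at gene groups that the WT members left empty. Of 40 morphogens and their antagonists 11 had such a region within 10 kb (27.5%, near the 26.6% of all protein-coding genes), from 16 regions with pileups of up to 10. WNT7B, a WNT ligand, had 4, the strongest of 672 bp at chr22:45980671-45981342, and SFRP2, a WNT antagonist, had 2. Of 53 clustered protocadherin genes 19 had one (35.8%), but these genes overlap and the count came from 3 regions, of a pileup of at most 7. Genes of near-identical copy families had one in 125 of 291 cases (43.0%), from 268 regions.

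KO regions away from H3K27ac lay within 10 kb of 6.86% of all genes. SHH, the sonic hedgehog morphogen, had one of 201 bp and pileup 7 at chr7:155792031-155792231, and NKX2-2 had 2. The region at PCGF1 that WT and JmjD-dead also held had a pileup of 10 in KO, at chr2:74505770-74506233. SUZ12, a core subunit of Polycomb repressive complex 2, had a region in KO (chr17:31939383-31939819, pileup 5) and in JmjD-dead (chr17:31939464-31939706, pileup 8) and no WT member. JmjD-dead was the deepest H3K27me3 library, at 10449019 fragments, and these differences were not tested, as every genotype was 1 library.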
